A study of Mus musculus with 6 samples.

Results

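The TEAD factors *Tead1*, *Tead2*, *Tead3* and *Tead4*, their co-activators *Yap1* and *Wwtr1* (the gene of TAZ) and 4 of their common target genes, *Ctgf*, *Cyr61*, *Ankrd1* and *Amotl2*, were followed in cultured mouse keratinocytes that lacked the SoxC transcription factors *Sox4*, *Sox11* or both. All 10 genes were found on the array by the RefSeq accession of their probes (*Ctgf* and *Cyr61* are listed there as *Ccn2* and *Ccn1*), among 21368 genes so named. They were measured by 13 of the 55681 probes, 3 of them for *Tead1* and 2 for *Tead2*. The genes were chosen by pathway, with earlier results of these data known. *Tead2* had been described as a direct SoxC target in other tissues before this study. The study itself reports that FLAG-tagged SOX11 and SOX4 bound a known *Tead2* site in keratinocytes. It also reports that SOX11 activated a reporter gene through a cloned *Tead2* region.

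Primary keratinocytes came from the skin of newborn pups, which the labels give as 129SvEx:C57BL/6. In the study's methods this is the mixed background of the floxed mice, and the Krt14-Cre mice they were crossed to were FVB/N. The groups were Sox4 cKO, Sox11 cKO and dcKO cells, the last lacking both genes, with 2 biological replicates each, and wild-type control cells, whose RNA lay in the other channel of each of the 6 arrays. Deletion was driven by Krt14-Cre, which is active in basal epidermal cells, on Sox4 fl/fl and Sox11 fl/fl alleles. The study's methods also list Sox12-/- among the parental mice and do not state whether cells on the arrays carried that allele. The cells had first been grown on J2 fibroblast feeders and later without them. The labels do not say whether arrays shared a wild-type culture, so p-values measure the spread between these arrays, and with 2 arrays a genotype their number limits the precision.

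TEAD proteins bind DNA and need a partner to activate transcription. YAP and TAZ, the partners, enter the nucleus when the Hippo kinases MST and LATS are inactive, and are held in the cytoplasm when LATS phosphorylates them. In the epidermis YAP and TAZ act in basal cells, where they favour proliferation and an undifferentiated state, and *Ctgf*, *Cyr61*, *Ankrd1* and *Amotl2* are widely used as readouts of their activity.

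The targeted genes followed the labels. On the brighter probe of each gene, the log2 ratio of knockout over wild type for *Sox4* was -2.49 and -2.54 on the Sox4 cKO arrays and -2.23 and -2.81 on the dcKO arrays. That of *Sox11* was -3.31 and -2.65 on the Sox11 cKO arrays and -3.07 and -3.79 on the dcKO arrays. The gene left intact in a single knockout was not always steady. *Sox11* was at 0.82 and -0.97 on the Sox4 cKO arrays, and at 0.86 and -1.065 on its second probe. *Sox4* was at 0.06 and -0.35 on the Sox11 cKO arrays. *Sox12* was not well above background in any channel. All 8 keratinocyte markers examined, among them *Krt5*, *Krt14* and *Trp63*, were well above background in every channel. Of 10 fibroblast markers, which could show RNA from feeder cells, 6 (*Col1a1*, *Col3a1*, *Pdgfrb*, *Thy1*, *Lum* and *Postn*) were above background in no channel, whereas *Col1a2* was in all 6 knockout and 5 wild-type channels. The summed signal of the list was 302.8 to 635.2 in wild-type and 320.1 to 357.1 in dcKO channels. None of the 10 was called in dcKO or Sox11 cKO, and *Vim*, which cultured keratinocytes can also express, was called in Sox4 cKO at a log2 fold change of -2.27 (limma adjusted p = 0.0342), on a probe well above background in 1 of the 2 Sox4 cKO channels and in both wild-type channels beside them.

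The promoters of these genes are shown because SoxC and TEAD factors bind short DNA motifs. Windows of 250 bases before the annotated start were read from RefSeq (GRCm38.p6), where 7 of the 10 genes had at least 1 window. Capitals mark CATTCC, the TEAD motif, or its reverse complement GGAATG, and ACAAAG, a SOX motif. Both strands were searched for these, for the SOX motif ACAATG and for the AP-1 motif TGANTCA. The *Tead2* window lies at chr7:45215542-45215791 on the plus strand, that of *Cyr61* at chr3:145649986-145650235 and that of *Ankrd1* at chr19:36119845-36120094, both on the minus strand.
Tead2: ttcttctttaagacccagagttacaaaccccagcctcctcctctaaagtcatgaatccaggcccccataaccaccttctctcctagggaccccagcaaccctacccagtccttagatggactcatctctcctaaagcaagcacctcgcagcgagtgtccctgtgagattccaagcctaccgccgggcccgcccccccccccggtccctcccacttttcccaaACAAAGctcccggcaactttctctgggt
Cyr61: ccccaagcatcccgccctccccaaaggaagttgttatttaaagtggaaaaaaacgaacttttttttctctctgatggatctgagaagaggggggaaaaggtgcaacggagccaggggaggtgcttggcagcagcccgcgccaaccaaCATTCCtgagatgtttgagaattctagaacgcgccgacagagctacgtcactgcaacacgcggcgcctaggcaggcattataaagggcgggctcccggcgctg
Ankrd1: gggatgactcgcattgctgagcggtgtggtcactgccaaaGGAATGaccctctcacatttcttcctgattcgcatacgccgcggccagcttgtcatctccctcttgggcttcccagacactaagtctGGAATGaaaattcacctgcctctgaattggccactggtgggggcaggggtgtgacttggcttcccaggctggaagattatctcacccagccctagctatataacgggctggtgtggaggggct
The *Tead2* window held 1 SOX motif, ACAAAG at 28 to 23 bases before the start, and no TEAD motif. Each of the other 6 genes (*Tead3*, *Yap1*, *Wwtr1*, *Cyr61*, *Ankrd1* and *Amotl2*) had at least 1 TEAD motif in a window and none of these SOX or AP-1 letters. Among all 32851 promoter windows, 12.6% held CATTCC, 16.5% ACAAAG, 10.7% ACAATG and 6.75% TGANTCA. A match describes the letters only.

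*Tead2* was the member that fell in dcKO cells. On its brighter probe (A_55_P2129271) the log2 ratio was -1.90 and -2.79 on the 2 dcKO arrays, 0.07 and -1.22 on the Sox4 cKO arrays and -0.15 and -0.06 on the Sox11 cKO arrays. Both dcKO values lay below all 4 values of the single knockouts, an order whose share over all probes is not given here. The fitted log2 fold change in dcKO was -2.34 (SE 0.23), a 5.07-fold lower signal, with a limma adjusted p of 0.00584. The second probe (A_55_P2076846) gave -2.91 and -3.49 in dcKO, -0.22 and -0.74 in Sox4 cKO and -0.52 and 0.16 in Sox11 cKO. Its log2 fold change in dcKO was -3.20 (SE 0.23), or 9.20-fold lower, with an adjusted p of 0.00154. Calls used the thresholds of the study's methods, which are an adjusted p below 0.05 (Benjamini-Hochberg, over all probes) and a log2 fold change beyond 1.5 in either direction. In dcKO against wild type 0.756% of all probes were called, and 1 of the 10 genes was, read on each gene's brightest probe.

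In neither single knockout was *Tead2* called. In Sox4 cKO cells the brighter probe gave a log2 fold change of -0.57 (SE 0.23) with an adjusted p of 0.657. Its ratios on the 2 arrays differed in sign, and were -0.275 and -0.868 after removal of the dye effect. In Sox11 cKO cells the brighter probe gave -0.11 (SE 0.23) with an adjusted p of 0.99, and ratios of -0.502 and 0.287 after that removal. The 95% confidence intervals were -1.12 to -0.03 in Sox4 cKO and -0.65 to 0.44 in Sox11 cKO. For comparison, the deleted *Sox4* was called in Sox4 cKO on both of its probes (limma adjusted p = 0.00399 and 0.00491). The deleted *Sox11* was called in Sox11 cKO on its brighter probe, at -2.98 (adjusted p = 0.0414). Its second probe, at -2.78, was not called (adjusted p = 0.0945). Of 18 alternatives, the call on the brighter probe was lost in 4 for *Sox4* and in 10 for *Sox11*.

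The difference between the double and the single knockouts was tested as a contrast of the same model. Against Sox11 cKO, *Tead2* was lower in dcKO by both probes, with a log2 difference of -2.24 (SE 0.33, adjusted p = 0.0461) for the brighter and -3.02 (SE 0.33, adjusted p = 0.0186) for the second. Against Sox4 cKO the second probe passed, at -2.72 (SE 0.33, adjusted p = 0.0232), and the brighter did not, at -1.77 (SE 0.33, adjusted p = 0.0739). Of all probes, 0.449% were called in dcKO minus Sox11 cKO and 0.562% in dcKO minus Sox4 cKO. Without the dye term, which is also the block on the replicate number, the brighter probe lost its call against Sox11 cKO (adjusted p = 0.158) and the second kept it (adjusted p = 0.0318).

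These calls depended on the arrays and on the background correction. Without dcKO replicate 1 the adjusted p for *Tead2* in dcKO was 0.112 on the brighter and 0.037 on the second probe, and without dcKO replicate 2 it was 0.142 and 0.0659. With a normexp offset of 50 in place of 16 it was 0.0615 and 0.0477, at log2 fold changes of -2.25 and -2.86. With Agilent's processed signals neither probe passed (adjusted p = 0.195 and 0.179, at -2.51 and -3.63). The deleted genes lost calls in dcKO there too. With the processed signals *Sox4* (limma adjusted p = 0.158) and *Sox11* (0.186) did not pass, and with the offset of 50 *Sox11* did not (0.0918). Of 18 alternatives, the dcKO call was lost in 4 for *Sox11*, in 1 for *Sox4* and in 4 for the brighter *Tead2* probe. The *Tead2* difference to Sox11 cKO lost its call on both probes without either dcKO array, with the offset of 50 (adjusted p = 0.167 and 0.135), with the processed signals (0.378 for both) and with only the arrays of dcKO and Sox11 cKO in the model (0.134 and 0.0711). On the brighter probe it was also lost among probes above background only (adjusted p = 0.072). That to Sox4 cKO on the second probe lost its call without any one of the dcKO or Sox4 cKO arrays (adjusted p = 0.0891 to 0.191), with the offset of 50 (0.114) and with the processed signals (0.324).

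**Figure D1:**
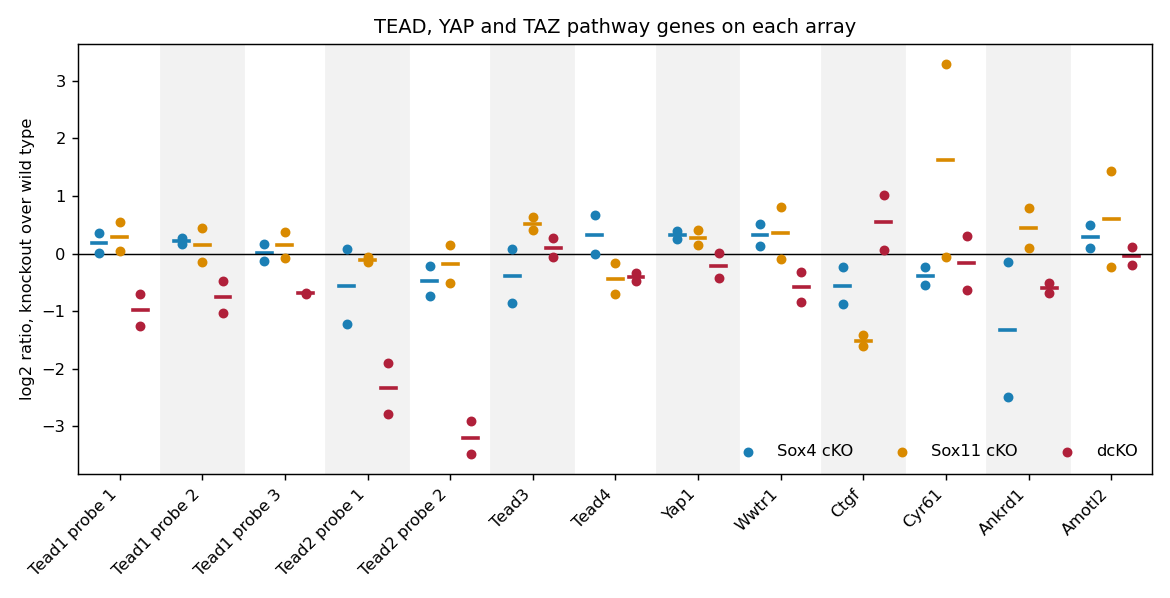
Log2 ratio of knockout over wild type (y axis) for each probe of the 10 genes (x axis; probe 1 is the brightest of a gene), with 1 point per array, 2 arrays per genotype, and a bar at their mean. Both *Tead2* probes lie between -1.90 and -3.49 in dcKO, and the Sox11 cKO points of *Cyr61* are farthest apart, at -0.06 and 3.30.

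The signal of each channel showed where *Tead2* stood in every culture. On a log2 scale after normalisation between arrays, the brighter probe measured 9.26 and 8.18 in the dcKO channels, 9.48 and 9.53 in the Sox4 cKO channels and 10.84 and 9.62 in the Sox11 cKO channels. Its 6 wild-type values ran from 9.41 to 11.15 with a median of 10.86. Both dcKO values lay below every other channel, and that of dcKO replicate 1 (9.26) was close to the lowest wild-type value (9.41). On the second probe the dcKO channels measured 7.71 and 6.51, and every other channel lay between 8.40 and 10.62. The mean levels of the genotypes were ordered dcKO, Sox4 cKO, Sox11 cKO and wild type, from low to high, on both probes. Both single knockouts lay within or next to the wild-type range. The order is one of channel levels, which also differed between arrays in wild-type cells. On the brighter probe the within-array ratios of Sox4 cKO (0.07 and -1.22) and Sox11 cKO (-0.15 and -0.06) overlapped. How many other probes share these patterns is not given here. Wild-type cells themselves differed by 1.75 on the brighter probe, with lower levels on the array of Sox4 cKO replicate 1 (9.41) and Sox11 cKO replicate 2 (9.68) than on the other 4, where they were 10.75 to 11.15. With bulk RNA, fewer cells expressing a gene and less RNA per cell cannot be told apart.

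**Figure D2:**
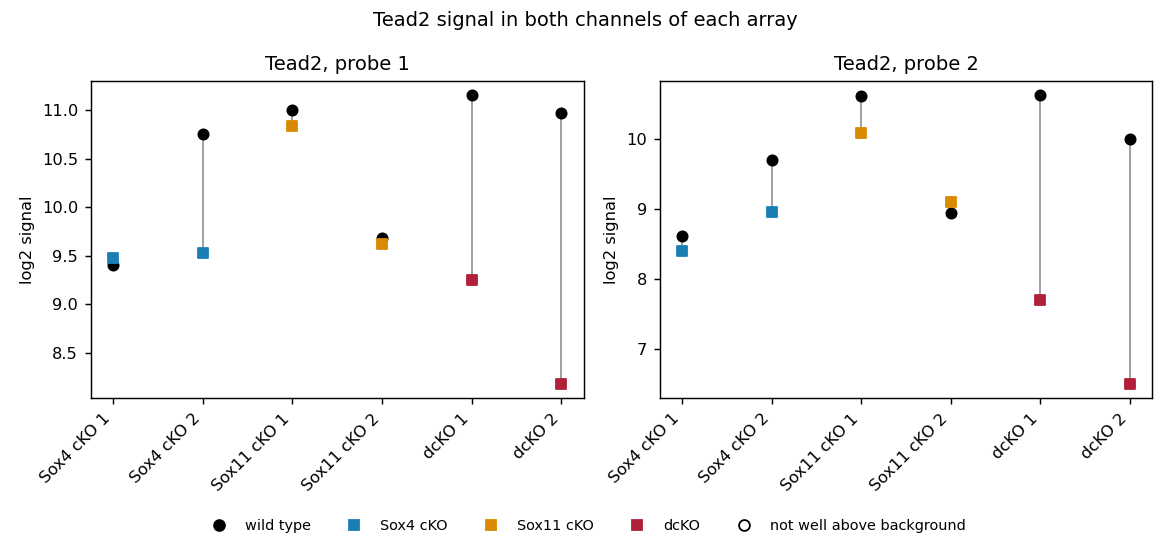
Log2 signal of *Tead2* (y axis) on its 2 probes in the wild-type (circles) and knockout (squares) channel of each of the 6 arrays (x axis), joined by a line. The widest gaps are on the 2 dcKO arrays, where wild type measured 11.15 and 10.97 on the brighter probe and dcKO 9.26 and 8.18.

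The other TEAD factors were not called. *Tead1*, which is broadly expressed, had log2 ratios of -0.70 and -1.26 in dcKO, 0.35 and 0.02 in Sox4 cKO and 0.04 and 0.55 in Sox11 cKO on its brightest probe. On that probe the log2 fold change in dcKO was -0.98 (SE 0.20, adjusted p = 0.0659). The other *Tead1* probes gave -0.75 (adjusted p = 0.143) and -0.69 (adjusted p = 0.109) in dcKO, so that all 3 probes were lower on both dcKO arrays and none passed the test. Against Sox4 cKO the brightest probe differed by -1.16 (adjusted p = 0.15) and against Sox11 cKO by -1.27 (adjusted p = 0.138). With each array centred on its median in place of loess, *Tead1* was called in dcKO at -1.52 (adjusted p = 0.00562). That centring also moved the median of the 23932 probes above background from -0.03 to -0.37.

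*Tead3*, a factor known from the placenta, had dcKO ratios of -0.07 and 0.26. Its log2 fold change was 0.10 (SE 0.23, adjusted p = 0.938), and -0.31 under median centring. In the single knockouts it measured 0.08 and -0.87 in Sox4 cKO and 0.40 and 0.63 in Sox11 cKO. *Tead4*, known for its role in the trophectoderm, was at -0.47 and -0.34 in dcKO, 0.67 and -0.02 in Sox4 cKO and -0.17 and -0.71 in Sox11 cKO. Its log2 fold change in dcKO was -0.41 (SE 0.18, adjusted p = 0.411). The dcKO and Sox11 cKO values of *Tead4* overlapped.

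Of the co-activators, *Yap1* had the narrowest range. Its dcKO ratios were -0.42 and 0.00, against 0.39 and 0.26 in Sox4 cKO and 0.14 and 0.41 in Sox11 cKO. The dcKO log2 fold change was -0.21 (SE 0.16, adjusted p = 0.711), with a 95% confidence interval of -0.58 to 0.16. Its log2 signal was 12.64 to 12.83 in the knockout channels and 12.22 to 13.07 in the wild-type channels. *Wwtr1* measured -0.84 and -0.32 in dcKO, 0.51 and 0.13 in Sox4 cKO and -0.09 and 0.81 in Sox11 cKO. Its log2 fold change in dcKO was -0.58 (SE 0.22, adjusted p = 0.312). The differences between dcKO and Sox4 cKO, -0.53 for *Yap1* (adjusted p = 0.408) and -0.90 for *Wwtr1* (adjusted p = 0.301), did not pass. Those to Sox11 cKO, -0.49 (adjusted p = 0.534) and -0.94 (adjusted p = 0.32), did not pass either.

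The ratios of the 4 target genes differed in sign from array to array, and none was called. *Ctgf*, a secreted matricellular protein of the CCN family, had dcKO ratios of 0.05 and 1.02. Its log2 fold change in dcKO was 0.54 (SE 0.26, adjusted p = 0.463). In Sox11 cKO it was lower on both arrays, at -1.42 and -1.60, with a log2 fold change of -1.51 (SE 0.26) that did not pass the test (adjusted p = 0.134). In Sox4 cKO it was at -0.23 and -0.88, with a fold change of -0.56 (adjusted p = 0.703). The difference dcKO minus Sox11 cKO was 2.05 (SE 0.37, adjusted p = 0.0735). With the authors' own table of log2 ratios in the same model, this *Ctgf* difference was called.

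*Cyr61*, of the same family, showed no common direction. Its dcKO ratios were 0.31 and -0.63 and its Sox4 cKO ratios -0.24 and -0.55. In Sox11 cKO it was -0.06 on one array and 3.30 on the other, where the wild-type channel had the lowest of the 6 wild-type values (8.90) and the knockout channel the highest signal of all (12.20). The log2 fold change in Sox11 cKO was 1.62 (SE 0.62, adjusted p = 0.655), and 3.61 without Sox11 cKO replicate 1, when it was called from the single remaining array (adjusted p = 7.63e-05).

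*Ankrd1*, a nuclear ankyrin repeat protein, was the dimmest gene of the set. Its probe was well above background in 3 knockout and 4 wild-type channels of 6. In dcKO it was not well above background on either array, while the wild-type channel was on both. The bound computed for its fall in dcKO was 1.47-fold, a point estimate without an error. The fitted log2 fold change was -0.60 (adjusted p = 0.704), with a 95% confidence interval of -1.64 to 0.45, so that a fall was not established. In Sox4 cKO its ratios were -0.15 and -2.49, the former with neither channel above background. *Amotl2*, an angiomotin that binds YAP and is itself a target, was at 0.11 and -0.20 in dcKO, 0.09 and 0.49 in Sox4 cKO and -0.24 and 1.44 in Sox11 cKO. Its dcKO log2 fold change was -0.04 (SE 0.30, adjusted p = 0.981).

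On the same array of Sox11 cKO replicate 2, *Cyr61*, *Amotl2* and *Ankrd1* all had their lowest wild-type signal, at 8.90, 8.89 and 4.74, the last not well above background. Wild-type signals of the targets spread widely, by 3.58 for *Ctgf*, 2.82 for *Cyr61*, 3.56 for *Ankrd1* and 1.26 for *Amotl2* on the log2 scale, against 0.85 for *Yap1*. *Ctgf* was highest on the array of Sox4 cKO replicate 2, in both its wild-type (15.31) and its knockout (14.43) channel.

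**Figure D3:**
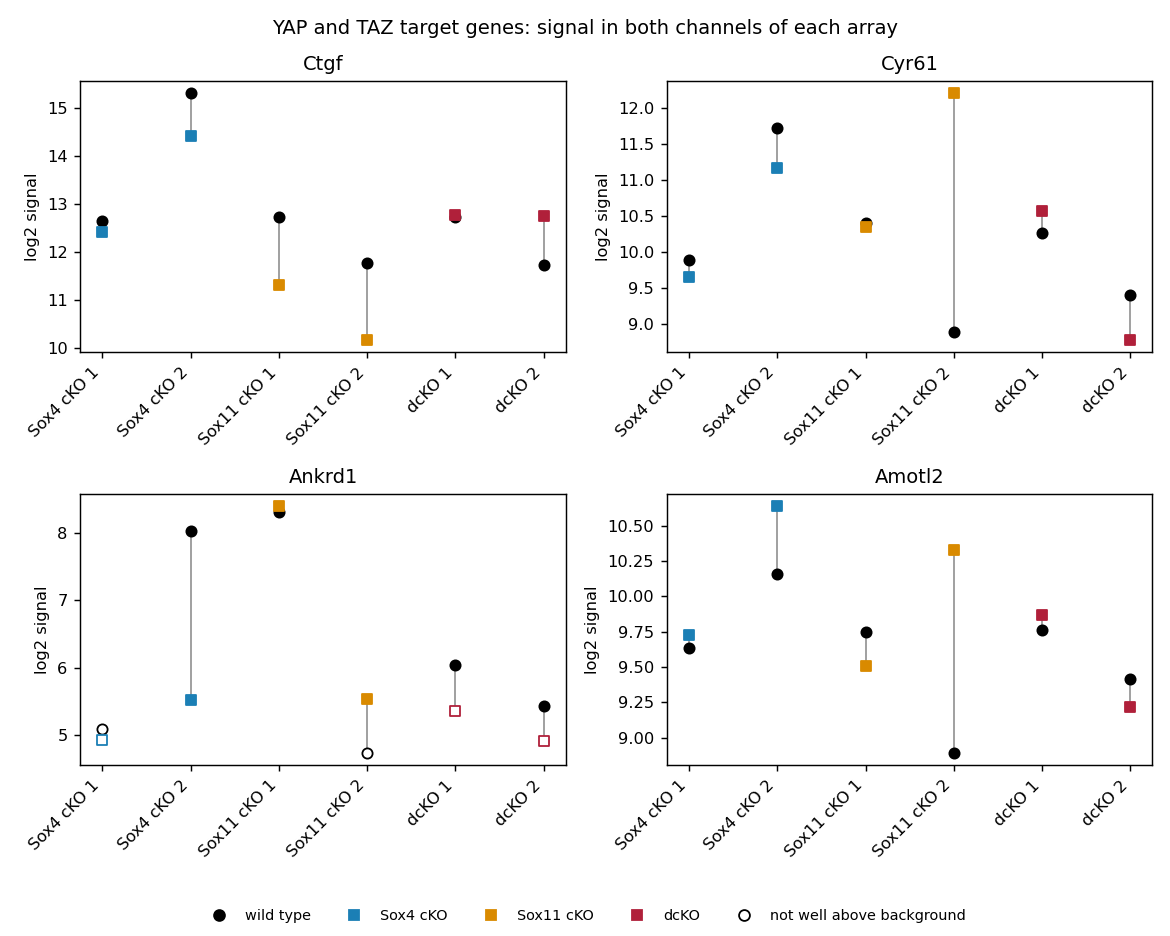
Log2 signal (y axis) of *Ctgf*, *Cyr61*, *Ankrd1* and *Amotl2* in the wild-type (circles) and knockout (squares) channel of each array (x axis); open marks were not well above background. *Ctgf* reaches 15.31 in the wild-type channel of the array of Sox4 cKO replicate 2, and *Cyr61* has its widest gap, from 8.90 to 12.20, on that of Sox11 cKO replicate 2.

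Over all 10 genes, the median log2 fold change in dcKO was -0.31, with 0 called higher and 1 lower. The median was -0.004 over all probes and -0.03 over those above background. Of the genes, 5 were lower on both dcKO arrays and 1 (*Ctgf*) was higher on both. The share of all probes with the same sign on both is not given here, and the ratios of the 2 dcKO arrays correlated at 0.48 across probes. In Sox4 cKO the median was -0.10 and 0 of 10 were called, where 0.14% of all probes were, and in Sox11 cKO it was 0.33 with 0 of 10 called, where 0.0862% were. At an unadjusted p below 0.05, limma found 3 of the 10 genes for dcKO, 2 for Sox4 cKO and 3 for Sox11 cKO, where 13%, 7.4% and 6.85% of all probes passed the same rule. Most of the 10 genes were above background, and many of all probes were not. With only the 23932 probes above background in the model, 2, 1 and 1 of the genes passed, where 21.5%, 9.31% and 9.39% of these probes did. All 3 comparisons may share control cultures.

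The wider pathway was read from lists of genes. Of 18 other YAP and TAZ target genes, 0 were called in dcKO and their median log2 fold change was -0.24. The largest changes among those above background were *Gadd45a*, a stress and growth arrest gene, at -0.88 (adjusted p = 0.164), the kinase gene *Nuak2* at -0.72 (adjusted p = 0.0684) and the phosphatase gene *Ptpn14*, whose product binds YAP, at -0.72 (adjusted p = 0.092). *Gadd45a* rested on 1 array, with ratios of -0.05 and -1.70. *Nt5e*, which encodes the ectonucleotidase CD73, was higher in dcKO than in Sox11 cKO cells by 1.59 (SE 0.21, adjusted p = 0.0328), a call. Its ratios were 0.89 and 0.51 in dcKO, 1.36 and 0.98 in Sox4 cKO and -0.53 and -1.25 in Sox11 cKO. This call was lost under 12 of 18 alternatives. They were median centring (1.02, adjusted p = 0.0863), no replicate block (0.141), the offset of 50 (0.123), the processed signals (0.378), only the arrays compared (0.248), probes above background only (0.0578), means over probes (0.0669) and leaving out any one array other than Sox11 cKO replicate 1 (0.0671 to 0.232).

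Of 18 Hippo kinases and scaffolds, which restrain YAP and TAZ, 0 were called in dcKO and the median was -0.09. *Map4k4*, a kinase upstream of LATS, had dcKO ratios of -1.33 and -1.29, Sox4 cKO ratios of -0.15 and -0.73 and Sox11 cKO ratios of -0.28 and -0.28. It fell by the adjusted p alone, at a log2 fold change of -1.31 (SE 0.17, adjusted p = 0.0128), a rule under which 2.05% of all probes were called in dcKO. Its second probe gave -0.94. This was lost with the offset of 50 (adjusted p = 0.0604), with the processed signals (0.2) and without either dcKO array (0.144 and 0.221), and under median centring *Map4k4* was called at -1.85 (adjusted p = 0.00309). *Lats1* was at -0.58 (adjusted p = 0.104), and *Stk3*, the gene of the kinase MST2, at 0.76 (adjusted p = 0.24). *Lats2*, which is also a YAP target, stands in both lists and was at -0.11 (adjusted p = 0.883).

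Of 16 further regulators of YAP, TAZ and TEAD, 0 were called in dcKO and the median was -0.38. *Vgll4*, whose product competes with YAP for TEAD proteins, had ratios of -1.27 and -1.26 in dcKO, -0.47 and -0.60 in Sox4 cKO and -0.65 and 0.08 in Sox11 cKO. It was not well above background in either dcKO channel and was in all other channels. At the offset of 16 the bound on its fall in dcKO was 2.19-fold, a point estimate without an error. It fell by the adjusted p alone, at a fitted log2 fold change of -1.27 (SE 0.18, adjusted p = 0.0208). The fitted value depended on the background correction, at -0.72 with the offset of 50 (adjusted p = 0.116) and -3.66 with the processed signals (adjusted p = 0.186), and without either dcKO array it did not pass (adjusted p = 0.191 and 0.314). *Amotl1*, an angiomotin that holds YAP in the cytoplasm, was at -0.51 and -1.04 in dcKO, 0.97 and 0.71 in Sox4 cKO and 0.11 and -0.04 in Sox11 cKO. Its difference between dcKO and Sox4 cKO, -1.62 (SE 0.21, adjusted p = 0.0277), was called, and its change against wild type in dcKO, -0.78 (adjusted p = 0.051), was not. The call between dcKO and Sox4 cKO was lost without the replicate block (adjusted p = 0.0757), with the offset of 50 (0.0965), with the processed signals (0.324), among probes above background only (0.0503) and with means over probes (0.056), as it was without any one of the dcKO or Sox4 cKO arrays (adjusted p = 0.105 to 0.23). *Ajuba*, a LIM protein that inhibits LATS, was at -0.76 in dcKO (adjusted p = 0.101). The lists share *Amotl2* and *Ptpn14* with the genes above.

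**Figure D4:**
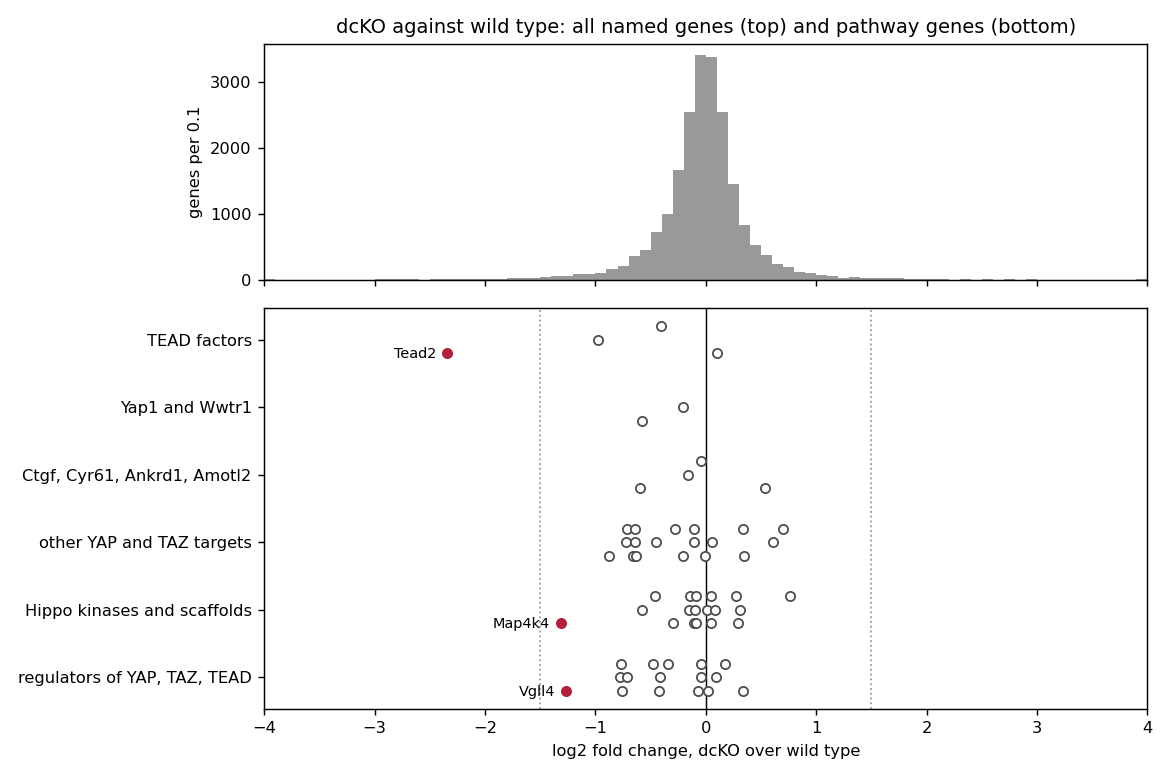
Top, number of named genes per 0.1 of log2 fold change in dcKO against wild type over all 21368 genes (end bars hold all genes beyond the axis). Bottom, the same value for the 10 genes and the 3 pathway lists, 1 point per gene on its brightest probe, filled where the adjusted p was below 0.05, with dotted lines at the fold threshold of 1.5. *Tead2* at -2.34 lies beyond the line, and *Map4k4* at -1.31 and *Vgll4* at -1.27, not well above background in dcKO, are filled and lie inside it.

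*Tubb3*, a neuronal tubulin gene and another known SoxC target, gave a point of comparison for *Tead2*. Its log2 ratios were -1.27 and -0.74 in dcKO, -0.43 and -0.32 in Sox4 cKO and -0.98 and -1.29 in Sox11 cKO. In dcKO its log2 fold change was -1.01 (SE 0.18, adjusted p = 0.0393), below the fold threshold, and in Sox11 cKO -1.14 (SE 0.18, adjusted p = 0.106). Unlike *Tead2*, its dcKO and Sox11 cKO values overlapped, and their difference was 0.13 (SE 0.25, adjusted p = 0.94), and -0.48 under median centring.

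The genes with a pattern nearest to *Tead2* were sought among 10685 genes above background in all 6 wild-type channels, by the Euclidean distance over the 6 log2 ratios after removal of the dye effect. They were *Capsl* (distance 0.62), *Gm3383* (0.71), *Farp1* (0.80), *Gm4907* (0.88) and *Tmem98* (0.89), beside a median distance of 3.51. Their log2 fold changes in dcKO were -2.33, -2.36, -2.07, -1.92 and -2.13. The distance was taken over these same ratios, so fold changes near that of *Tead2* follow from the choice. A gene without change also lies far from *Tead2*, by the size of the ratios of *Tead2* itself. The likeness is a description over 6 arrays of 1 experiment.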

How the data were processed

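Expression was measured on 6 2-colour Agilent mouse arrays, 2 for each of 3 genotypes, with wild-type RNA in the other channel. The authors deposited scanner output of Agilent Feature Extraction 11.0.1.1, in which each spot has an intensity per channel that was neither background corrected nor normalised. Per the file headers, the processed intensity values in the same files were background subtracted and dye normalised. A further table from the authors gives log2 ratios, which per the study's methods underwent background correction, loess and removal of the dye effect. Its columns correlated with the ratios computed here at 0.89 to 0.95 across probes, turned as knockout over wild type.

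Per the labels, replicate 1 of each genotype had Cy5 on the knockout RNA and replicate 2 had Cy3. Median spot signals were corrected in R 4.3.3 with limma 3.58.1 by normexp with the study's offset of 16 and normalised by loess within each array. Of 62976 spots, 3671 control spots were left out, as were the 194 to 288 spots an array marked as outliers. On any array the probes well above background made up 35.15% to 42.83% of the knockout channel and 37.3% to 45.01% of the wild-type channel, and 0 spots were saturated. A linear model over all 6 arrays held each genotype and a dye effect, with 2 residual degrees of freedom and 5.37 added by the empirical Bayes prior. The dye term equals a block on the replicate number. The deviations of same-numbered arrays from their genotype means correlated at 0.316, 0.244 and 0.125 across probes, and a batch shared by a number cannot be told apart from the dye.

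A gene was read on its brightest probe, and other probes of the 10 genes were reported beside it. Of 29786 probes with a RefSeq accession, 95.12% were named through a table for GRCm38.p6, which is not the build of the array design, so that only names and promoter windows were taken from it. A fold change for a gene not well above background in 1 group was given as a bound. Channel levels came from loess and quantile normalisation of the average intensities. On simulated data for dcKO over 55681 probes, 66 to 67 probes were changed at each size. A log2 change of 2 was called in 98.51% and of 3 in 100% of changed probes, with 8 false calls. A change of 1, below the fold threshold, was called in 0% and passed the adjusted p in 80.6%. These shares hold for the simulated spread only. In the data *Tead1*, at -0.98 in dcKO, had a limma adjusted p of 0.0659.

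The 10 genes, the pathway lists and the markers were chosen with earlier results of these data known. Named besides the 10 genes and *Sox4*, *Sox11*, *Sox12* and *Tubb3* were listed pathway genes called in any of the 5 comparisons, the 3 of each list with the largest dcKO change among those above background on both dcKO arrays in either channel, and the 5 genes nearest to *Tead2*. *Lats2* was added after its values were seen. Marker lists not described with the results gave 0 calls in dcKO: 5 of 6 keratinocyte differentiation markers were matched, and 2 of 6 melanocyte, 3 of 6 immune and 2 of 4 endothelial markers were above background in no channel, whereas *Pmel* and *Mitf*, *Cd3e*, and *Pecam1* and *Kdr* of these lists were so in all 6 knockout channels. Each result was recomputed under other background corrections, normalisations, models and filters and without each array.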

Additional observations from a re-analysis of the deposited data

Results flagged for a closer look

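*Ctgf* had 1 wild-type sample far from the others. Its log2 signal was 15.31 in the wild-type channel of the array of Sox4 cKO replicate 2 and at most 12.73 in the other 5 wild-type channels. That gap was 0.719 of the whole range, above Dixon's 95% critical value for 6 samples, which chance exceeds in about 1 of 20 groups. All 13 probes of the set were examined in this way, and only that of *Ctgf* passed. With that many probes, 1 such gap can occur by chance. The knockout channel of that array was also its highest, at 14.43, so that the ratio was -0.88.

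The effect on *Tead2* differed between genotypes. The contrast dcKO minus Sox11 cKO was -2.24 on the brighter probe and -3.02 on the second, and dcKO minus Sox4 cKO was -2.72 on the second, each called by limma over all probes. On the brighter probe dcKO minus Sox4 cKO was -1.77 and was not called (adjusted p = 0.0739).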

How the results depend on the processing

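For dcKO against wild type, the count of member genes called was 1 (*Tead2*) and stayed at 1 under scale normalisation, both other treatments of the dye, the arrays of dcKO alone, probes above background alone, outlier spots kept, the authors' table, probe means and the adjusted p alone. It was 0 with an offset of 50 and 0 with the processed signals, where 78 and 0 of all probes were called in place of 421 (7240 and 7473 at an unadjusted p below 0.05), and 2 (*Tead1* and *Tead2*) under median centring, where 720 were called. Lower calls were 83.2% of these under median centring and 58.7% in the model as reported. Means over the probes of a gene gave 280 calls, the adjusted p alone 1144. Leaving out 1 array gave 0 to 1, with 0 without dcKO replicate 1 or 2. The log2 fold change of *Tead2* kept its direction under each of these, from -2.88 to -2.20 on the brighter and -3.70 to -2.86 on the second probe, and that of *Tead3* reversed to -0.31 under median centring. The difference of *Tubb3* between dcKO and Sox11 cKO, 0.13, became -0.48 under that centring and -0.19 to 0.45 when 1 array was left out.

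In dcKO minus Sox4 cKO 0 genes were called on the brightest probe (6 of 10 at an unadjusted p below 0.05, as were 12.1% of all probes), 2 under median centring, 1 with the authors' table and 0 to 1 when 1 array was left out, the 1 being *Tead2* without either Sox11 cKO array. With only probes above background in the model, 5 genes passed the unadjusted rule in dcKO minus Sox4 cKO, as did 18.6% of those probes. In dcKO minus Sox11 cKO 1 was called. This became 0 with no replicate block, an offset of 50, the processed signals, only the arrays of the genotypes compared, probes above background only or means over probes. It became 2 under median centring (*Tead1*, *Tead2*) and with the authors' table (*Tead2*, *Ctgf*), and 0 to 4 when 1 array was left out, with 4 (*Tead1*, *Tead2*, *Ctgf*, *Cyr61*) without Sox11 cKO replicate 1 and 0 without either dcKO array. In Sox4 cKO 0 was found under every alternative run. In Sox11 cKO leaving out 1 array gave 0 to 1, the 1 being *Cyr61*. The cause of these shifts was not tested.

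Some log2 fold changes changed sign when 1 array was left out. In dcKO these were *Amotl2* (-0.72 to 0.63), *Ctgf* (-0.15 to 1.23), *Cyr61* (-1.40 to 1.07) and *Tead3* (-0.25 to 0.45). In Sox4 cKO they were *Ankrd1* (-2.71 to 0.065), *Cyr61* (-1.16 to 0.37), *Tead3* (-1.01 to 0.22) and *Wwtr1* (-0.22 to 0.87). In Sox11 cKO they were *Amotl2* (-0.22 to 1.42), *Ankrd1* (-0.45 to 1.34), *Cyr61* (-0.38 to 3.61), *Tead1* (-0.19 to 0.78), *Wwtr1* (-0.051 to 0.77) and *Tead2* on both probes (-0.70 to 0.48 and -0.79 to 0.43). A lone remaining array was assumed to vary like the others.

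The planned use of mean spot signals was not run, a slide or scan block does not apply with 1 slide and 1 scan, and quantile normalisation of average intensities leaves log2 ratios as they are. The range of wild-type *Ankrd1* signal grew from 3.56 to 6.62 with processed signals.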
